A study of Mus musculus with 7 samples.

Results

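Akr1b7, Crisp1, Crygc, Cyp4a12a, Abcg2, Pate8, Nefh and Lcn5 are a set of 8 genes, led by a gene of the vas deferens (Akr1b7), whose transcript levels differ widely from one piece of mouse prostate to the next. They were selected on their measured values, because they varied together across the 7 libraries of this series, and were found by gene symbol. All 8 were among the 16019 genes listed in every library. That they vary, and vary together, is therefore how they were chosen and not a finding. The mice had experimental autoimmune prostatitis (EAP), an immune attack on the prostate, and no group of mice without EAP was part of the design. One group (LIT927, n = 4, replicates 1 to 4) was injected intraperitoneally for 14 days with LIT927 at 25 mg per kg per day, a compound that neutralizes the chemokine CXCL12 by binding it, so that CXCR4 is not engaged. The other (vehicle, n = 3, replicates 1, 3 and 4) received the solvent methyl-β-cyclodextrin on the same schedule. RNA of prostate tissue was sequenced, and the labels name neither strain nor age, nor which prostate lobes or neighbouring ducts were taken. No sample of vas deferens alone was analysed here, so the genes are called by their names and not taken as proof of that tissue.

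The vas deferens carries sperm from the epididymis to the urethra, and like the epididymis and the seminal vesicle it develops from the Wolffian duct, while the prostate buds from the urogenital sinus. Its epithelium is known to make large amounts of androgen-dependent secretory protein, and in the mouse its last stretch joins the urethra beside the prostate lobes and the seminal vesicles. Akr1b7 encodes an aldo-keto reductase that was first isolated as a major protein of mouse vas deferens fluid and detoxifies reactive aldehydes. Crisp1, a cysteine-rich secretory protein of the male tract, coats sperm during their maturation. Pate8 belongs to a family of small secreted proteins with the fold of Ly6 antigens, and Lcn5 is a lipocalin of the epididymis that carries retinoic acid. Cyp4a12a hydroxylates fatty acids, arachidonic acid among them, and Abcg2 pumps small molecules out of cells. Crygc is a gamma-crystallin best known from the lens, and Nefh, the heavy neurofilament subunit, is best known from axons.

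Promoter windows, from 250 bases before to 50 bases after a transcript's start, were at hand from RefSeq (build GRCm38.p6) for 5 of the 8 genes, in 7 windows. Those of Cyp4a12a, Pate8 and Nefh were not analysed here. Here 3 are shown 5′ to 3′ on the gene's strand: those of Akr1b7 and Crisp1, whose levels stayed nearest to a fixed ratio, and that of Crygc, which shared their profile but not the motif. Capitals mark the androgen receptor half-site, TGTTCT or its reverse complement AGAACA. The Akr1b7 window lies at chr6:34412112-34412411 (plus strand), that of Crisp1 at chr17:40319158-40319457 (minus strand) and that of Crygc at chr1:65073483-65073782 (minus strand).
Akr1b7: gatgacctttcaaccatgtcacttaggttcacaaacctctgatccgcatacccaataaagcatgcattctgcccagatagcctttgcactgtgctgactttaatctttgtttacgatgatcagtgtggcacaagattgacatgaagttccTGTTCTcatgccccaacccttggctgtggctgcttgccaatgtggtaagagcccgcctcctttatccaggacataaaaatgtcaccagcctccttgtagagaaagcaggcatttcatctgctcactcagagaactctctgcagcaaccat
Crisp1: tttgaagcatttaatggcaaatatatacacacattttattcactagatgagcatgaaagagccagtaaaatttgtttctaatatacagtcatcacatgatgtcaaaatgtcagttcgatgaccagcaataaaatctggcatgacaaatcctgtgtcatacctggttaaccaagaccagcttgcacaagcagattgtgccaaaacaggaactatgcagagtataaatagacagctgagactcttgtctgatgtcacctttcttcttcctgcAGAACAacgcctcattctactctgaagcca
Crygc: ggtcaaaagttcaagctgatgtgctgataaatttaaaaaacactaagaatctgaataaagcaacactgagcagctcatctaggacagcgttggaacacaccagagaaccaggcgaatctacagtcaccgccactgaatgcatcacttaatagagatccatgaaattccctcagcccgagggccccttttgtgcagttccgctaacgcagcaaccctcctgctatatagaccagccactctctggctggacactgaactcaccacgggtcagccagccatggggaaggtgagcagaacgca
The half-site began 100 bases before the start in Akr1b7 (position -100) and at position 20 after it in Crisp1. It was in no other window of these genes. Of all 32851 RefSeq windows of this length, 19.0% held it on either strand. The inverted repeat of both half-sites with 3 bases between them was in none of the 7 windows and in 0.00913% of all windows. Neither were the AP-1 site TGACTCA (5.20% of all windows) or the site TCAAGGTCA of the steroidogenic factor Nr5a1 (0.423%) in any of the 7. These are matches of exact letters and not measured binding, and imperfect forms of the sites or of the repeat were not searched.

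The genes lay apart in the genome (build mm10, RefSeq gene bounds, with overlaps from GENCODE M21). Akr1b7 was at chr6:34412362-34423137, Abcg2 at chr6:58584491-58692451, Crisp1 at chr17:40293758-40319207 and Crygc at chr1:65071525-65073532. Cyp4a12a was at chr4:115299046-115332815, Pate8 at chr9:36581278-36582635, Nefh at chr11:4938754-4948064 and Lcn5 at chr2:25657932-25662230. Akr1b7 overlaps Gm13857, an antisense pseudogene, and the strand setting of the counting is not given in the sources used here, so their reads could not be told apart. Cyp4a12a is 98.2% identical over 2395 bases to its neighbour Cyp4a12b, and reads may be split between the pair. Cyp4a12b was listed at 0.748% to 1.20% of the Cyp4a12a level wherever it was above 0.

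Depth was even, with 32023785 to 35240765 fragments in listed genes per library. Levels are in FPKM (fragments scaled to gene length and to library size). They can be compared between genes of a library, while between libraries they also move with the share that a few abundant genes take. Pbsn, the androgen-regulated probasin that marks the labelled tissue, was at 129 to 11311 FPKM in the 7 libraries. A pair of libraries stood apart from the rest in both groups, vehicle replicate 3 and LIT927 replicate 3. Prostate secretory genes summed to 92686 and 207180 FPKM in that pair, against 6167 to 21082 FPKM elsewhere, and 9 of 13 were higher in both than in all other libraries. Uroplakin and urothelial genes summed to 358 and 411 FPKM in the pair and to 74.0 to 148 FPKM elsewhere, with 7 of 11 above. Their part in the levels given below was not tested. Results that rest on this pair are given with and without it.

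Akr1b7 was by far the most abundant of the 8. It stood at 8408, 84.5 and 1597 FPKM in vehicle replicates 1, 3 and 4 and at 17099, 8867, 15.9 and 5998 FPKM in LIT927 replicates 1 to 4. The highest library was thus 1074-fold above the lowest, and the groups overlapped. Group means were 3363 ± 4434 FPKM with vehicle (SD, n = 3) and 7995 ± 7102 FPKM with LIT927 (SD, n = 4), with SDs about as large as the means. Together the 8 transcripts made up between 0.00422% of the FPKM of a library (LIT927 replicate 3) and 4.01% (LIT927 replicate 1). In a bulk sample, fewer cells of a type and less RNA per cell cannot be told apart.

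Crisp1 followed nearly the same order at a lower level. It stood at 1008, 12.2 and 289 FPKM in vehicle replicates 1, 3 and 4 and at 2508, 1222, 2.62 and 1034 FPKM in LIT927 replicates 1 to 4. Vehicle replicate 1 and LIT927 replicate 4 differed by little. Means were 436 ± 514 FPKM (SD, n = 3) with vehicle and 1192 ± 1028 FPKM (SD, n = 4) with LIT927.

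Crygc, the crystallin, was nearly silent in both replicates 3. It measured 217, 0.235 and 21.7 FPKM in vehicle replicates 1, 3 and 4 and 427, 186, 0.347 and 112 FPKM in LIT927 replicates 1 to 4. The low values rest on 5 and 7 fragments, so the 1818-fold span between its extremes is loosely fixed by counting alone. With vehicle the mean was 79.5 ± 119 FPKM (SD, n = 3), and with LIT927 it was 181 ± 181 FPKM (SD, n = 4).

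Abcg2, the efflux pump, came to 121, 3.68 and 26.9 FPKM in vehicle replicates 1, 3 and 4 and to 277, 114, 0.379 and 92.4 FPKM in LIT927 replicates 1 to 4. Lcn5 was the least abundant, at 1.92, 0 and 0.585 FPKM with vehicle and 4.42, 2.93, 0.0643 and 1.30 FPKM with LIT927, from 94, 0 and 30 fragments and from 210, 139, 3 and 66 fragments. For Abcg2 the means were 50.6 ± 62.1 FPKM (SD, n = 3) with vehicle and 121 ± 115 FPKM (SD, n = 4) with LIT927. Lcn5 was the one gene of the 8 that did not reach 10 FPKM in any library. Its level in LIT927 replicate 1 was at least 72.5-fold higher than in vehicle replicate 3, where 0 fragments allow a level of up to 0.0610 FPKM (3 fragments in that library, counting error only).

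Pate8, Cyp4a12a and Nefh peaked in another library, LIT927 replicate 2. Pate8 was at 556, 59.7 and 501 FPKM in vehicle replicates 1, 3 and 4 and at 1435, 2470, 13.2 and 1640 FPKM in LIT927 replicates 1 to 4. Its means were 372 ± 272 FPKM (SD, n = 3) with vehicle and 1390 ± 1021 FPKM (SD, n = 4) with LIT927. Its span of 187-fold was the narrowest of the 7 genes that were above 0 in every library.

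Cyp4a12a, the fatty acid hydroxylase, was at 96.0, 13.9 and 134 FPKM with vehicle and at 335, 626, 0.244 and 253 FPKM with LIT927. Nefh was at 76.2, 25.4 and 52.2 FPKM with vehicle and at 233, 420, 0.538 and 198 FPKM with LIT927. Both were far lower in LIT927 replicate 3 than in vehicle replicate 3, by a wider margin than Akr1b7 or Crisp1. The lowest of the other 5 libraries was 2.06-fold above the higher of the pair for Nefh and 62.5-fold above it for Crygc. Means were 81.4 ± 61.5 FPKM (SD, n = 3) and 304 ± 258 FPKM (SD, n = 4) for Cyp4a12a with vehicle and with LIT927. For Nefh they were 51.3 ± 25.4 FPKM and 213 ± 172 FPKM.

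**Figure D1:**
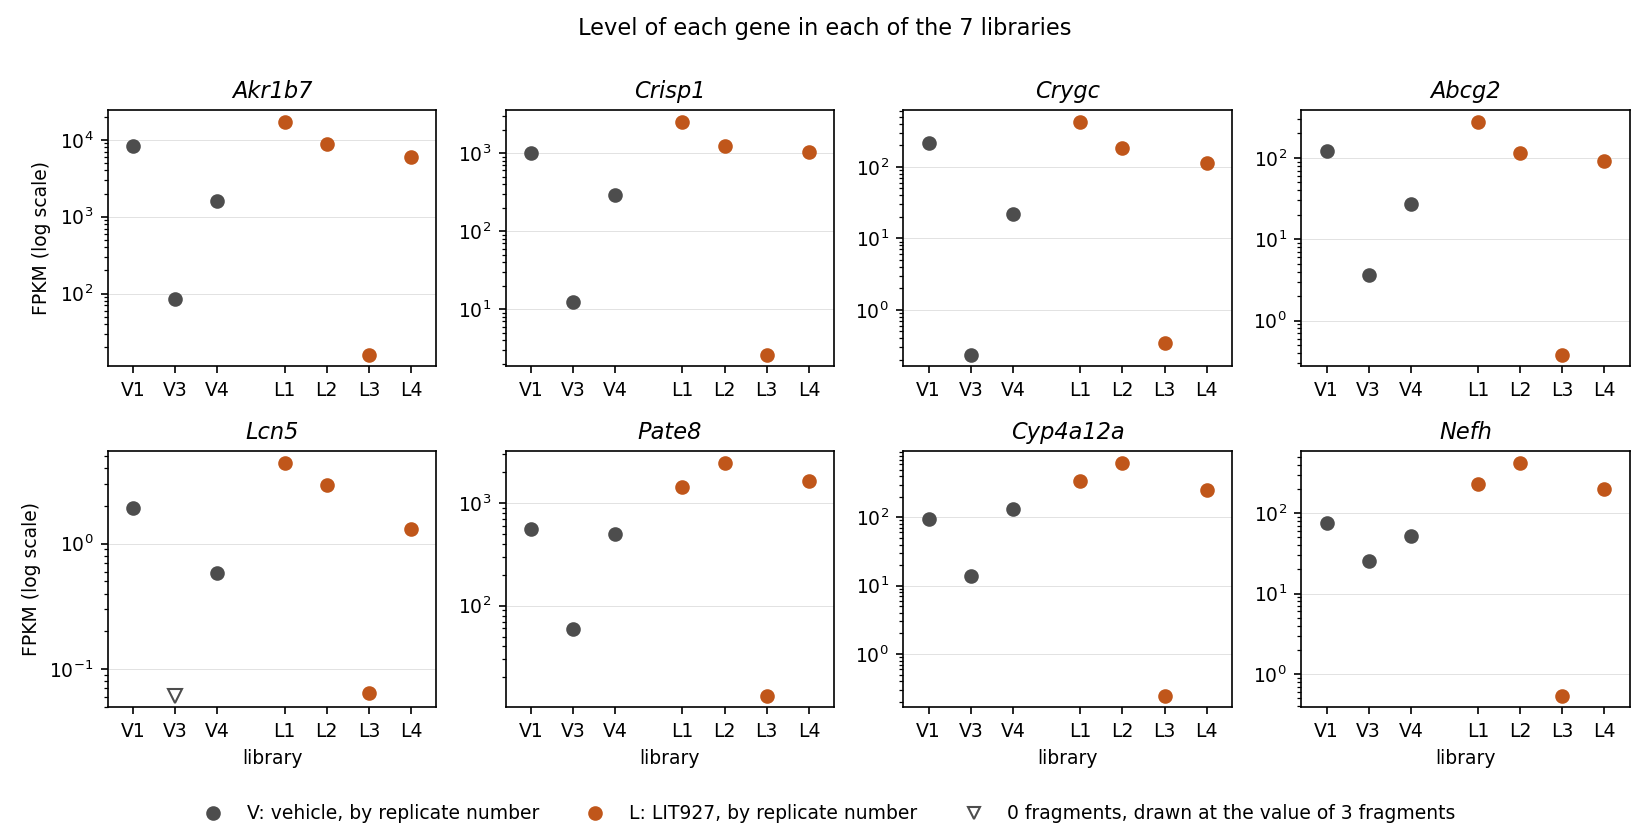
FPKM on a log axis in each of the 7 libraries, 1 panel a gene, with vehicle (V) in grey, LIT927 (L) in orange and replicate numbers on the x axis. Every gene is lowest in V3 and L3, Akr1b7 lying at 84.5 and 15.9 FPKM, and the lower row shows Pate8, Cyp4a12a and Nefh peaking in L2 instead of L1.

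All 8 genes were lower in both replicates 3 than in each of the other 5 libraries. Of all 16019 genes, 5.98% had that order. Since the variation between libraries chose the 8, their count is a description and nothing is read from it. LIT927 replicate 3 was the lowest library for 6 of the genes, and vehicle replicate 3 for Crygc and Lcn5. A set of 5 genes (Akr1b7, Crisp1, Crygc, Abcg2 and Lcn5) were highest in LIT927 replicate 1, and 3 (Pate8, Cyp4a12a and Nefh) in LIT927 replicate 2. The SD of log2(FPKM + 1) over the 7 libraries ran from 2.72 for Nefh to 3.83 for Akr1b7 among the 7 more abundant genes and was 0.93 for Lcn5, against a median of 0.31 over all genes. Akr1b7 ranked 12th and Lcn5 900th of all genes by this SD. Scaling by the median of ratios kept both replicates 3 lowest and the same highest library for each gene. Akr1b7 was then at 78.6 and 19.6 in the pair and at 2410 to 15071 elsewhere. Between these ends the order of libraries changed for Crygc, Abcg2, Pate8 and Nefh. Pate8, for example, was at 426 in vehicle replicate 1 and at 755 in vehicle replicate 4 after scaling, and at 556 and 501 FPKM before it.

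Within a library, Crisp1 kept close to a fixed fraction of Akr1b7 while Crisp1 itself moved over a 958-fold range. Crisp1 was at 11.99%, 14.5% and 18.1% of the Akr1b7 level in vehicle replicates 1, 3 and 4 and at 14.7%, 13.8%, 16.4% and 17.2% in LIT927 replicates 1 to 4. The highest of these ratios was 1.51 times the lowest. The means were 14.9% ± 3.1 (SD, n = 3) with vehicle and 15.5% ± 1.6 (SD, n = 4) with LIT927, a difference smaller than the spread within either group.

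The other genes of this profile held the ratio less well in the pair of low libraries. Abcg2 was at 1.28% to 1.69% of Akr1b7 in the 5 other libraries, and at 4.36% in vehicle replicate 3 and 2.38% in LIT927 replicate 3. Crygc was at 1.36% to 2.58% in those 5 libraries and at 2.18% in LIT927 replicate 3, but at 0.278% in vehicle replicate 3, where it had 5 fragments. Lcn5 lay between 0.0217% and 0.0366% of Akr1b7 in the 5 libraries. It was at 0.404% in LIT927 replicate 3, from 3 fragments, and at 0 in vehicle replicate 3, from 0 fragments.

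Pate8, Cyp4a12a and Nefh did not keep a fixed fraction of Akr1b7. Pate8 was at 6.61% of the Akr1b7 level in vehicle replicate 1 and 8.39% in LIT927 replicate 1, but at 27.3% to 31.3% in both replicates 4 and in LIT927 replicate 2, and at 70.6% and 83.0% in the replicates 3. Nefh ranged from 0.906% in vehicle replicate 1 to 30.0% in vehicle replicate 3, and Cyp4a12a from 1.14% to 16.5% in the same libraries. Set against Pate8, both varied less in the 5 libraries other than the replicates 3. Nefh was at 10.4% to 17.0% of Pate8 there, a 1.63-fold range, and Cyp4a12a at 15.4% to 26.8%, a 1.74-fold range. In LIT927 replicate 3 both ratios lay below, at 4.07% for Nefh and 1.85% for Cyp4a12a, with 69 and 19 fragments behind them. In vehicle replicate 3 Nefh lay above, at 42.6%, and Cyp4a12a was at 23.3%. Over all 7 libraries Cyp4a12a varied as widely against Pate8 (14.5-fold) as against Akr1b7 (14.4-fold).

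**Figure D2:**
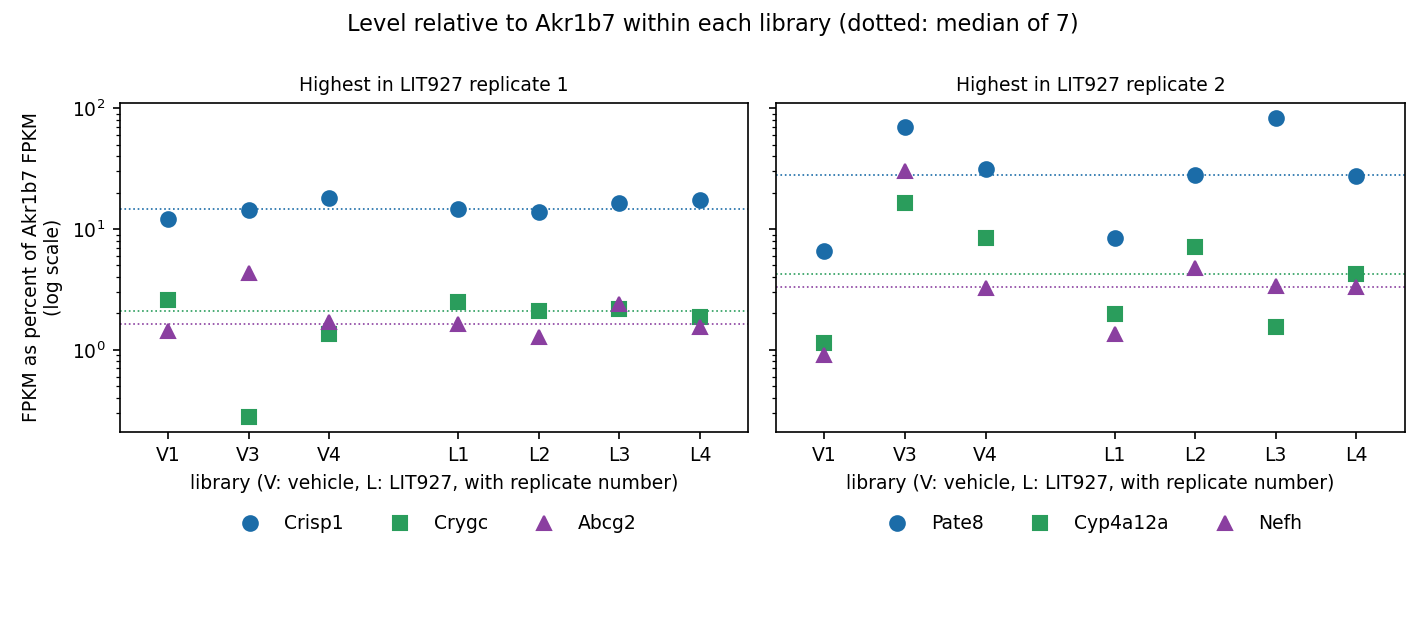
Level of 6 genes as a percent of Akr1b7 in the same library, on a log axis, for the 7 libraries (V vehicle, L LIT927), with dotted lines at the median. Crisp1 stays between 11.99% and 18.1%, while Pate8 runs from 6.61% to 83.0%.

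The correlations of log2(FPKM + 1) over the 7 libraries describe the same split. Pearson's r of the 28 pairs ran from 0.802 (Nefh with Lcn5) to 0.998 (Akr1b7 with Crisp1), with a median of 0.947, and Spearman's rho from 0.679 to 0.964. The points share their library and its normalization, and the low pair of libraries stretches the range, so these values carry no test. Without both replicates 3 the median was 0.719. Among the 5 genes highest in LIT927 replicate 1, r over the remaining 5 libraries was 0.928 to 0.996 for 10 pairs. Among Pate8, Cyp4a12a and Nefh it was 0.942 to 0.984 for 3 pairs. Between both sets it was 0.393 (Crygc with Cyp4a12a) to 0.724 (Crisp1 with Nefh) for 15 pairs. The sets were drawn by their highest library, one of these 5, and that choice favours this split.

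**Figure D3:**
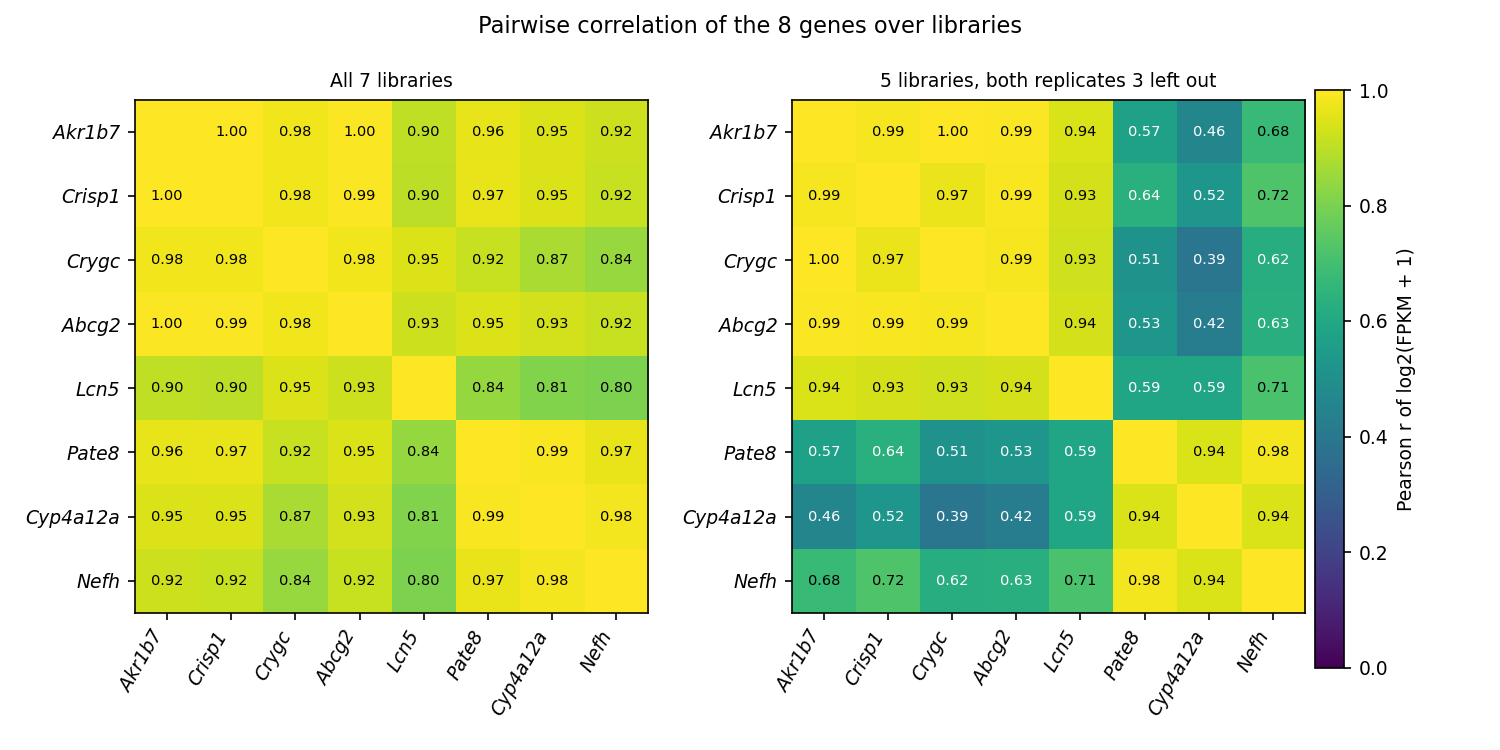
Pearson's r of log2(FPKM + 1) for each pair of the 8 genes, over all 7 libraries on the left and over the 5 libraries other than both replicates 3 on the right. On the left all pairs are at 0.80 or above, and on the right Pate8, Cyp4a12a and Nefh form a block apart from the other 5 genes, with r of 0.39 to 0.72 between the blocks.

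Most close relatives of these genes did not share their profile. Counts out of all measured genes of a list include any of the 8 on it. Of all 16019 genes, 958 were lower in both replicates 3 than elsewhere and 1375 were higher. The lower order was commoner than that in the aldo-keto, CRISP, crystallin, CYP4, ABC, PATE and lipocalin lists, also without the 8. In the list of neuronal filaments only Nefh had it. The lists were fixed with earlier results known, so nothing is read from this. Of 12 measured aldo-keto reductases on the list, 3 were lower in both replicates 3 than elsewhere (Akr1b7, Akr1cl and Akr1c19) and 3 were higher (Akr1b8, Akr1c12 and Akr1c13). Akr1b3, the aldose reductase of most tissues, was at 588, 292 and 273 FPKM with vehicle and 259, 136, 144 and 548 FPKM with LIT927, and its r with Akr1b7 was 0.393. Akr1b10 stayed between 15.1 and 38.2 FPKM. Akr1b8, named after its values were seen, was highest in the pair, at 8.29 and 10.03 FPKM against 2.62 to 4.05 FPKM elsewhere. Akr1cl, named like Akr1c12, Akr1c13 and Akr1c19 after its values were seen, went with Akr1b7, at 0.0861 and 0.0908 FPKM in the pair and 2.13 to 23.5 FPKM elsewhere (r = 0.957).

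Crisp1 was far above its measured relatives. The remaining 8 of the list reached at most 23.5 FPKM, in Crispld2, and Crisp3, its closest relative in sequence and named after its values were seen, reached 0.281 FPKM. Glipr2 was the one relative that was also lower in both replicates 3, at 3.61 and 0.648 FPKM against 5.19 to 8.93 FPKM elsewhere. Among 9 measured crystallins, Crygc and 3 that stayed at or below 2.65 FPKM were lower in both replicates 3 (Cryba4, Crybb1 and Crygn, named after their values were seen). Cryab, the small heat shock protein of muscle and lens, was at 3.70 to 18.03 FPKM, and Crybg1 was higher in the pair (14.6 and 18.3 FPKM against 2.92 to 4.24). Of 14 measured CYP4 hydroxylases, 4 were lower in the pair: Cyp4a12a, its near copy Cyp4a12b, Cyp4a30b and Cyp4x1. Cyp4a30b went with Akr1b7 at up to 8.44 FPKM (r = 0.936), while Cyp4f13 stayed within 5.04 to 13.6 FPKM. Of 16 measured ABC transporters, 4 of the Abcg branch were lower in the pair (Abcg2, Abcg4, Abcg5 and Abcg8), the latter 3 at up to 4.52 FPKM. Cyp4a12b, Cyp4x1 and these 3 were named after their values were seen. Abcg2 was the most abundant, followed by Abcc3 at 4.14 to 21.8 FPKM with no such order.

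Pate8 belongs to a family whose measured members took different orders. Pate4, the abundant seminal vesicle protein SVS7, was also highest in LIT927 replicate 2 (43583 FPKM) but stayed at 8777 and 15223 FPKM in the replicates 3. Pate14 took nearly the opposite order, with 4584 and 6118 FPKM in the pair, 8544 FPKM in vehicle replicate 4 and 34.5 to 211 FPKM elsewhere (r = -0.75 with Pate8). Pate6 was likewise highest in vehicle replicate 4, at 973 FPKM. Pate9, named after its values were seen, was highest in vehicle replicate 1, at 821 FPKM, and at 9.03 FPKM in LIT927 replicate 2. Of 17 measured PATE and Ly6-related genes, 3 were lower in both replicates 3, Pate8, Pate1 and Acrv1, Pate1 being named after its values were seen.

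Other transcripts of nerve did not share the profile of Nefh. Nefl and Nefm, the light and medium subunits with which Nefh forms neurofilaments in axons and which were named after their values were seen, were at most 10.6 and 4.71 FPKM. Nefl was at 10.6, 2.25 and 0.0335 FPKM with vehicle and at 0.127, 0, 0.221 and 0.645 FPKM with LIT927. Prph, the filament of peripheral neurons, was highest in vehicle replicate 1 (16.6 FPKM), and in LIT927 replicate 2, where Nefh was highest, it was at 0.122 FPKM. Nefh correlated with Pate8 at 0.967 over the 7 libraries, and Nefl and Prph did so at -0.11 and -0.17. The 15 nerve and Schwann cell genes, led by Uchl1, Tubb3, Stmn2 and Dbh, summed to 2.6 to 127 FPKM with vehicle and 4.2 to 16.3 FPKM with LIT927, and 14 of the 15 were highest in vehicle replicate 1 (Mbp, named after its values were seen, in vehicle replicate 3).

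Genes of the epididymis ranged from near 0 to abundant. Of 37 measured, 28 reached 1 FPKM and 18 reached 10 FPKM in at least 1 library. Rnase10, Adam7, Gpx5, Ros1, Lcn6 and Lcn12, named after their values were seen, reached at most 0.430 FPKM, in Adam7. Lcn2, the siderophore-binding lipocalin, was at 57.6, 32.7 and 88.0 FPKM with vehicle and 317, 326, 9.82 and 173 FPKM with LIT927. Ptgds, the lipocalin-type prostaglandin D synthase, was highest in LIT927 replicate 2 at 81.0 FPKM. Of the 10 measured lipocalins, 3 were lower in the pair, Lcn2, Ptgds and Lcn5. For Ptgds the margin was small, with 12.1 FPKM in LIT927 replicate 3 against 12.3 FPKM in vehicle replicate 1. Clu, a secreted chaperone abundant in the epididymis, was at 794, 345 and 810 FPKM with vehicle and 3157, 4070, 48.5 and 1769 FPKM with LIT927. Of 37 measured epididymis genes on the list, 16 were lower in both replicates 3 than elsewhere, Crisp1 and Lcn5 among them, and 1 was higher (Adam28, named after its values were seen), against 958 and 1375 of 16019 for all genes. Ceacam10 and Spinkl, secreted also by the seminal vesicle, were high in the pair, at 5121 and 5475 FPKM and at 5190 and 10741 FPKM, and higher still in vehicle replicate 4.

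Transcription factors of the Wolffian duct were divided. Emx2, a homeobox factor needed for its upkeep, was at 22.2, 3.64 and 13.8 FPKM with vehicle and 64.3, 71.2, 0.534 and 35.0 FPKM with LIT927. Pax8 was at 0.230 and 0.133 FPKM in the pair and 3.34 to 36.9 FPKM elsewhere. Hoxb13, which marks the prostate, was instead higher in the pair, at 256 and 377 FPKM against 13.3 to 172 FPKM elsewhere. Its r with Akr1b7 was -0.65. Gata3 reached 74.9 FPKM and was lower in both replicates 3 than in the rest, though by little in vehicle replicate 3 (38.6 against 38.8 FPKM in vehicle replicate 4). Of 27 measured genes of this list, 4 were lower in the pair, Pax2 (named after its values were seen), Pax8, Emx2 and Gata3, and 1 was higher, Hoxb13.

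Transport genes showed both profiles. Aqp2, the water channel also found in the vas deferens, was at 53.6, 0.313 and 8.10 FPKM with vehicle and 71.7, 33.8, 0.110 and 30.7 FPKM with LIT927, and its r with Crygc was 0.997. Aqp9, the glycerol and water channel of the efferent tract, ran with it from 0.0980 to 15.6 FPKM. Foxi1, the regulator of proton-secreting clear cells, was instead highest in LIT927 replicate 2 with Pate8, at 6.19, 0.514 and 7.04 FPKM with vehicle and 22.6, 35.6, 0 and 14.0 FPKM with LIT927. The proton pump subunits Atp6v1b1 and Atp6v1g3 were also highest in LIT927 replicate 2, and both were listed at 0 in LIT927 replicate 3. Aqp9, Foxi1 and both subunits were named after their values were seen. Of 21 genes on this list, 7 were lower in the pair and 5 higher. Slc12a2 and Slc26a4, carriers of chloride, were among the higher, at 307 and 443 FPKM and at 36.7 and 85.7 FPKM.

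**Figure D4:**
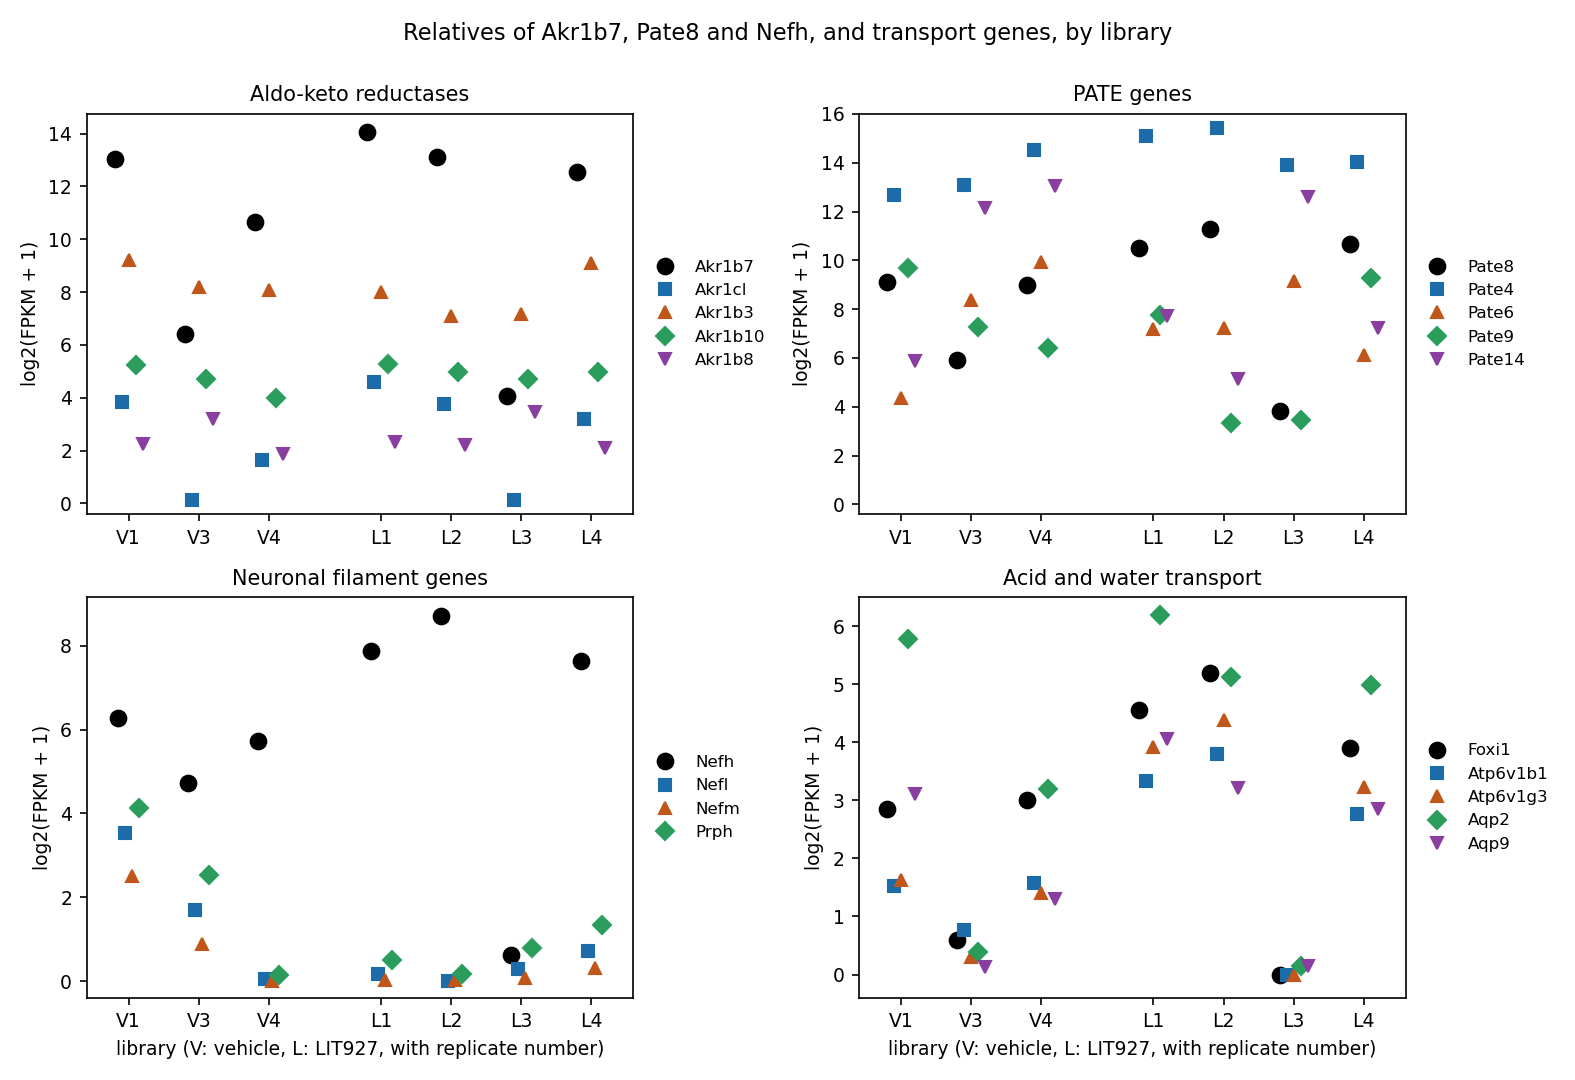
log2(FPKM + 1) by library (V vehicle, L LIT927) for relatives of Akr1b7, Pate8 and Nefh and for transport genes. Akr1cl drops with Akr1b7 in V3 and L3 while Akr1b3 does not, Nefl, Nefm and Prph are highest in V1 and not in L2 as Nefh is, and Foxi1 and the proton pump subunits peak in L2 while Aqp2 and Aqp9 peak in L1.

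Genes with the most similar profiles were sought among 5549 others that reached 10 FPKM in at least 1 library, by Pearson's r of log2(FPKM + 1) over the 7 libraries. For Akr1b7 these were Serpina1f (r = 0.997), Ptgs2 (0.994), Glb1l2 (0.991), Defb42 (0.988) and Sost (0.987), and the first 4 of these were also among the genes closest to Crisp1. Serpina1f, a serpin of the epididymis and vas deferens, was at 205, 1.78 and 40.7 FPKM with vehicle and 377, 192, 0.260 and 162 FPKM with LIT927. For Crygc they were Aqp2, the potassium channel gene Kcnj16, the beta-defensins Defb43 and Defb30, and the mucin Muc21, with r of 0.994 to 0.997. Lcn5 was closest to Depdc7, Nmi, Vash2, Acbd7 and Pgrmc1, at r of 0.979 to 0.989.

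The 5 genes closest to Abcg2 were Glb1l2, Fads2, Serpina1f, Crip1 and Hpgd (r of 0.991 to 0.996). Fads2, the desaturase of polyunsaturated fatty acids, was at 137, 11.4 and 30.1 FPKM with vehicle and 250, 128, 2.61 and 107 FPKM with LIT927. Hpgd degrades prostaglandins, and it was at 240, 42.7 and 79.7 FPKM with vehicle and 423, 210, 21.7 and 198 FPKM with LIT927. Ptgs2, the inducible cyclooxygenase, was at 275, 1.97 and 52.5 FPKM with vehicle and 396, 178, 0.405 and 201 FPKM with LIT927. Slco2a1, a prostaglandin carrier, was at 20.4 and 2.51 FPKM in the pair and 43.1 to 328 FPKM elsewhere. Of 17 genes of prostaglandin and aldehyde metabolism, 6 were lower in both replicates 3 and 4 were higher, Cbr2 among the latter at 1090 and 2443 FPKM.

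Pate8 and Cyp4a12a had 2 of their 5 closest genes in common, Pfkfb3, which controls glycolysis, and the cyclin gene Ccnd1. Pfkfb3 was at 92.3, 7.89 and 75.8 FPKM with vehicle and 314, 486, 1.07 and 246 FPKM with LIT927 (r = 0.998 with Pate8). The remaining genes were Alox5ap, Defb42 and Endod1 for Pate8, and Clu, Gas2l1 and Psat1 for Cyp4a12a. Among the genes closest to Nefh were Cpd, Pglyrp1, Eif4g3 and Clu (r of 0.992 to 0.997). None of these 4 is among the neuronal genes fixed in the lists.

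Against the mean profile of all 8, the closest genes included Glb1l2, Emx2, LOC118568032, Defb42, Serpina1f, Alad, Sost, Ptges and Ccnd1, with r of 0.986 to 0.996. Ptges, which makes prostaglandin E, was at 135, 27.3 and 51.8 FPKM with vehicle and 300.3, 229, 11.1 and 162 FPKM with LIT927. The opposite profile was strongest in Rab15 (r = -0.99), Sprr1a (r = -0.98), Cadps2, Pycr1 and Rhou. Sprr1a, a cornified envelope protein, was at 82.3 and 111 FPKM in the pair and at most 3.23 FPKM elsewhere. In all, 95 of the 5549 genes correlated with the mean profile at 0.95 or more.

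Genes of other organs were low. Albumin (Alb) was at most 0.115 FPKM, and 6 measured liver genes summed to 2.0 to 5.5 FPKM with vehicle and 1.4 to 3.1 FPKM with LIT927. The 6 measured adrenal genes summed to 0.8 to 1.0 FPKM with vehicle and 1.0 to 2.5 FPKM with LIT927. Of 4 measured kidney genes, those other than Aqp2 reached at most 1.17 FPKM, in Lrp2, and germ cell genes summed to 4.4 to 25.8 FPKM over the 7 libraries, mostly from Acrv1 and Odf2. Smooth muscle genes, led by Tagln, Actg2, Acta2 and Cnn1, were highest in vehicle replicate 1, where they summed to 13850 FPKM, and 1 of 16 was lower in both replicates 3 than elsewhere (Pcp4, named after its values were seen). Seminal vesicle genes, led by Svs4, Svs5 and Svs2, summed to 51501 FPKM in vehicle replicate 1 and to 608900 FPKM in vehicle replicate 4, and 0 of 13 were lower in the pair.

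The comparison of LIT927 with vehicle asks whether blocking CXCL12 changed transcript levels in the inflamed prostate. None of the 8 genes passed limma's test at an adjusted p under 0.05, and of all 16019 genes 0 did (0%). At an unadjusted p under 0.05, 3.68% of all genes passed (589), and 0 of the 8. With limma-voom on recovered fragments 0 genes passed after adjustment and 476 before it. All 8 were higher on average with LIT927, by 0.64 (Nefh, SE 1.83) to 1.69 (Crygc, SE 2.31) on the log2(FPKM + 1) scale, with a median of 0.88 against 0.02 over all genes. Each limma adjusted p was 0.998. The 95% intervals were wide, from -5.15 to 6.99 for Akr1b7 and from -0.69 to 2.07 for Lcn5, so neither a large rise nor a large fall is out of range at this number of libraries.

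Single libraries decided these differences. Without vehicle replicate 3, those of Akr1b7, Crisp1, Cyp4a12a, Abcg2 and Crygc were below 0, at -0.89, -0.72, -0.34, -0.37 and -0.25. Without LIT927 replicate 1, Akr1b7 was at -0.12 and Abcg2 at -0.04, and without LIT927 replicate 2, Cyp4a12a was at -0.29 and Nefh at -0.20. Without LIT927 replicate 3 the median of the 8 was 2.75, and 4 of the 8 had an unadjusted p under 0.05, as did 1210 of all 16019 genes, with no adjusted p below 0.324 (limma). Without vehicle replicate 1 the median was 1.80, and without LIT927 replicates 1, 2 and 4 it was 0.08, 0.36 and 0.50.

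With both replicates 3 left out, 2 vehicle and 3 LIT927 libraries remained. Crisp1, Cyp4a12a, Pate8 and Nefh were then higher in every LIT927 library than in either vehicle library, 4 of the 8, while 12.6% of all genes had that order. After median-of-ratios scaling the same count was 4 of 8, against 13.3% of all genes. Because the 8 vary together, these are not separate observations, and nothing is read from the count. Pate8 was at 528 ± 39 FPKM (SD, n = 2) with vehicle and 1848 ± 548 FPKM (SD, n = 3) with LIT927, a log2 difference of 1.77 (SE 0.67, limma adjusted p = 0.771). Nefh was at 64.2 ± 17.0 FPKM against 284 ± 119 FPKM, a log2 difference of 2.07 (SE 0.44, limma adjusted p = 0.444). Cyp4a12a was at 115 ± 27 FPKM against 405 ± 196 FPKM, a log2 difference of 1.72 (SE 0.50, limma adjusted p = 0.594). None passed after adjustment over all genes. Akr1b7 still overlapped, since vehicle replicate 1 at 8408 FPKM lay above LIT927 replicate 4 at 5998 FPKM.

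**Figure D5:**
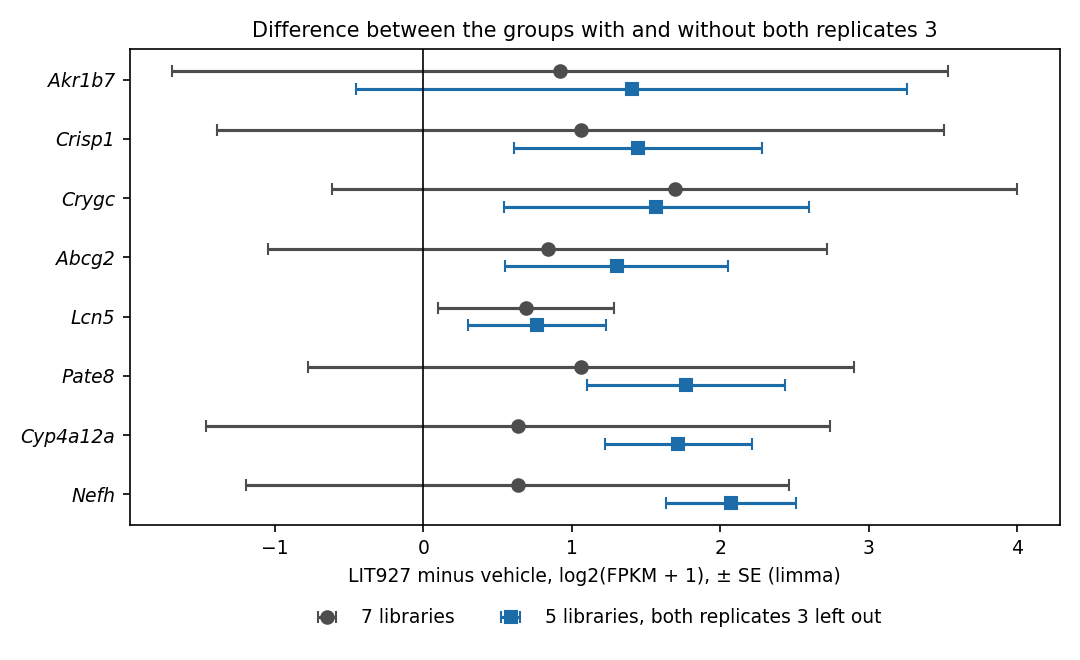
LIT927 minus vehicle difference of log2(FPKM + 1) with its SE from limma for each gene, over all 7 libraries (grey circles) and over the 5 libraries other than both replicates 3 (blue squares). Nefh moves from 0.64 to 2.07 when the pair is left out, and Crygc from 1.69 to 1.57.

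The lists of relatives and tissue genes were likewise not called. Of 12 aldo-keto reductases, 11 were higher with LIT927 and 1 lower (median difference 0.29), and of 17 prostaglandin and aldehyde genes 11 were higher and 6 lower (0.32). Of 9 CRISP and related genes 1 was higher, Crisp1, and 8 lower (-0.13), and of 9 filament genes 1 was higher, Nefh, and 8 lower (-0.97). Over all genes 8888 were higher and 7131 lower. In no list did a gene pass limma's adjusted threshold.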

How the data were processed

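Per the labels' protocols, TRIzol was used to extract prostate RNA, and a VAHTS Universal kit to prepare the 7 libraries. Tools named in the submitters' processing notes are fastp, HISAT2 and HTSeq, with mm10 as the build and no versions or settings. The deposited values were taken as FPKM computed by the authors: the headers name no unit, and each gene's low values fall on whole steps. From these steps whole fragments were recovered for all 16019 genes, within 0.01 fragments, which gave depth and an alternative. FPKM are relative to the library, so a few very abundant secretory genes lower all others. The median-of-ratios factors of the libraries ran from 0.663 to 1.30.

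LIT927 was compared with vehicle by limma (version 3.58.1, under R 4.3.3), fitted to log2(FPKM + 1) of all 7 libraries with its variance trend, no covariate and no filter. P-values were adjusted by Benjamini-Hochberg over all 16019 genes, and the threshold was 0.05. Differences on this scale understate the change of low genes. Whether each library is from its own animal is not stated in the labels, and p-values then measure only the spread between libraries, which may be technical. Replicate numbers were not used to pair the groups in this fit. No libraries held identical values. The code was tested on simulated data. Python 3.11.15, pandas 2.3.3 and NumPy 2.4.6 served for the other values, matplotlib 3.10.9 for figures and BLAST+ 2.17.0 for identity between transcripts.

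The 8 genes, the gene lists and the alternatives were chosen with earlier results of these data known. Named genes were the 8, the 5 genes most like each (10 most like and 5 least like their mean profile) among genes that reach 10 FPKM, and up to 4 genes of each list by highest level. Others are marked as named after their values were seen. Some genes that the rule names are not reported here. The alternatives tried were another pseudocount (0.1), a filter (at least 1 FPKM in 3 or more libraries), scaling by the median of ratios, rescaling without seminal vesicle secretion, limma-voom on recovered fragments, a replicate block and leaving out libraries. Leaving out both replicates 3 together with scaling was added after seeing the data.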

Additional observations from a re-analysis of the deposited data

Results flagged for a closer look

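For 5 of the 8 genes, LIT927 replicate 3 lay far from the other 3 LIT927 libraries. Its gap to the nearest of them, as a share of the group's range on the log2(FPKM + 1) scale, was 0.849 for Akr1b7, 0.865 for Crisp1, 0.855 for Cyp4a12a, 0.895 for Pate8 and 0.867 for Nefh. All 5 exceed Dixon's critical value for 4 samples. The 5 values come from 1 library and from genes that vary together, so they are a single observation. Chance passes this limit in about 0.05 of groups not chosen by their values. These genes were chosen by theirs, so the limit is no test here. The vehicle group has 3 libraries and was not examined in this way. The summed levels of the uroplakin and prostate secretory lists were also highest in LIT927 replicate 3, though not those of every gene in them, and their part in its low values was not tested.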

How the results depend on the processing

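The median pairwise correlation of the 8 genes was 0.719 with both replicates 3 left out, against 0.947. With any 1 library left out that median ran from 0.913 to 0.961. No alternative called a gene. The count at an unadjusted p under 0.05 ran from 259 (minimum of 1 FPKM in 3 libraries) to 1504 (both replicates 3 left out, scaled), with 945 without scaling and 1349 with scaling alone. With any 1 library left out, the LIT927 minus vehicle difference ran from -0.89 to 3.21 for Akr1b7, -0.72 to 3.23 for Crisp1, -0.25 to 3.51 for Crygc, -0.34 to 2.70 for Cyp4a12a, -0.37 to 2.52 for Abcg2 and -0.20 to 2.50 for Nefh, and the median of the 8 from -0.30 to 2.75. Pate8 (0.02 to 2.81) and Lcn5 (0.32 to 1.14) stayed above 0. The median of the 8 was 1.51 with both replicates 3 left out and 1.27 with scaling too.

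With a replicate block, which leaves out LIT927 replicate 2 since it has no partner, the differences of Cyp4a12a and Nefh were -0.29 and -0.20, the median was 0.36, and 0 genes were called, with 627 at an unadjusted p under 0.05. Deviations of same-numbered libraries correlated at 0.62, 0.78 and -0.13 for numbers 1, 3 and 4. Vehicle replicate 1 correlated slightly more with LIT927 replicate 4 (0.65) than with its own number. Vehicle replicate 4 correlated more with LIT927 replicate 2 (0.36). Vehicle replicate 3 correlated negatively with LIT927 replicates 1, 2 and 4 (-0.75, -0.39 and -0.52). Whether libraries of the same number shared their handling was not tested. Depth limits Lcn5, and Crygc in both replicates 3, where a level rests on at most 7 fragments.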
